A study of Rattus norvegicus with 39 samples.

Results

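The solute carriers are the membrane transporters whose rat gene symbols begin with Slc or Slco. They were followed here in laser-captured bile duct and hepatocytes of rats given alpha-naphthylisothiocyanate (ANIT), a compound that injures bile duct epithelium, or its vehicle. Members were the probe sets with a single annotated gene symbol starting Slc or Slco and a digit, and the choice used no measured difference. The rule left out Slc10a1, Slc10a2, Slc4a2, Slc34a2, Slc40a1 and Slc30a1. This gave 292 probe sets and 234 genes, of the 10411 genes with a single symbol on the array. The 46 genes with several probe sets were represented by the one with the highest mean over all 39 arrays. Of the 234 genes, 232 code for carriers, and the other 2, Slc4a1ap and Slc7a6os, only carry a related name.

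The animals were Sprague Dawley rats aged 8 weeks. Treated rats were dosed with 50 mg/kg ANIT dissolved in corn oil, and vehicle rats were given 10 ml/kg of the oil. Livers were sampled 2 or 6 h later, and bile duct or hepatocytes were cut from sections by laser capture microdissection. Of the 8 groups, 7 had 5 arrays and the 6 h vehicle bile duct group had 4. The labels call the arrays of a group biological replicates and speak of 5 treated rats and 5 controls per group, so the bile duct and hepatocyte captures of 1 time may come from the same rats. They do not say which arrays share a rat.

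Carriers move nutrients, ions, vitamins, metals and drugs across the plasma membrane and the membranes of organelles. Hepatocytes take up organic anions, bile acids and drugs from sinusoidal blood through carriers on their basolateral face, and their mitochondria hold the carriers that the urea cycle and gluconeogenesis need. Cholangiocytes, the epithelial cells of the bile duct, move chloride, bicarbonate, water, glucose and amino acids and so modify bile.

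Levels are log2 intensities from robust multi-array average (RMA) processing, in which 1 unit is a 2-fold difference, given as mean ± SD. Differences are log2 ± SE, and a gene was called when its adjusted p in limma was under 0.05. A dim probe set reads close to array background, so its fold change is understated, and levels of different genes are not compared. In a capture of many cells, fewer cells of a type and less RNA per cell cannot be told apart.

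The captures carried the markers of their labels. In vehicle rats at 2 h all 17 measured hepatocyte markers were lower in bile duct and all 14 measured cholangiocyte markers were higher. Hepatocyte markers nevertheless varied between bile duct arrays, with a mean level of 4.35 to 6.70 in the 2 h vehicle group, 4.59 to 8.86 in the 6 h vehicle group, 5.02 to 7.59 after ANIT at 2 h and 3.73 to 7.80 after ANIT at 6 h. On hepatocyte arrays the group means of these markers lay between 10.8 and 10.9. Bile duct arrays of 1 group correlated at 0.834 to 0.973 across probe sets and hepatocyte arrays at 0.979 to 0.993. The 4 vehicle bile duct arrays at 6 h had a narrow spread of values, with an SD of 1.68 to 1.88 across probe sets, against 1.99 to 2.18 in the 2 h vehicle bile duct group.

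The first question was which carriers differ between the 2 captured tissues without treatment. In vehicle rats at 2 h the largest single differences towards hepatocytes were those of the fatty acid and bile acid enzymes Slc27a2 and Slc27a5, the organic anion carrier Slco1a4 and the sulfate carrier Slc13a4. The largest towards bile duct were those of the cationic amino acid carrier Slc7a1, the choline transporter-like Slc44a4 and the glucose-6-phosphate carrier Slc37a1. Every class held members called in each direction. Of 234 members, 133 (56.8%) were called, where 52.2% of all 15866 probe sets were. There were 49 higher in bile duct, against a background of 28.7%, and 84 lower, against a background of 23.5%. The differences of at least 4-fold were unequal in direction. Bile duct was at least 4-fold lower for 41 members (17.5%) and for 6.13% of all probe sets. It was at least 4-fold higher for 14 members (5.98%) and for 4.29% of all probe sets. Arrays of the 2 tissues did not overlap for 110 members (47%), against a background of 40.3%.

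Calls are given by the level of the probe set, its mean over all 39 arrays. This mean takes in both tissues, so a gene bright in hepatocytes alone can lie above the median. Among the 121 members above the median probe set level of 4.1, 76 were lower in bile duct and 20 higher, and the background above that level was 39.1% lower and 27.7% higher. Among the 113 members below it, 8 were lower (7.08%, background 7.95%) and 29 higher (25.7%, background 29.7%), so these dim members were called about as often as the dim probe sets of the whole array. At 6 h in vehicle rats 154 members were called (background 53.7%), 74 higher (background 29.3%) and 80 lower (background 24.4%). Above the median level 16 were then higher (background 14.0%) and 74 lower (background 45.1%). The other higher members, 58 of the 113 dim ones (51.3%), lay below it. Most higher probe sets of the whole array also lay below it, with 1109 of 4643 above. Quantile normalization of these arrays gave 102 called members, 39 higher and 63 lower, and the share of all probe sets it called is not given here. The median member differed by 0.03 at 2 h and 0.16 at 6 h, where the median probe set of the whole array differed by 0.16 and 0.23.

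**Figure D1:**
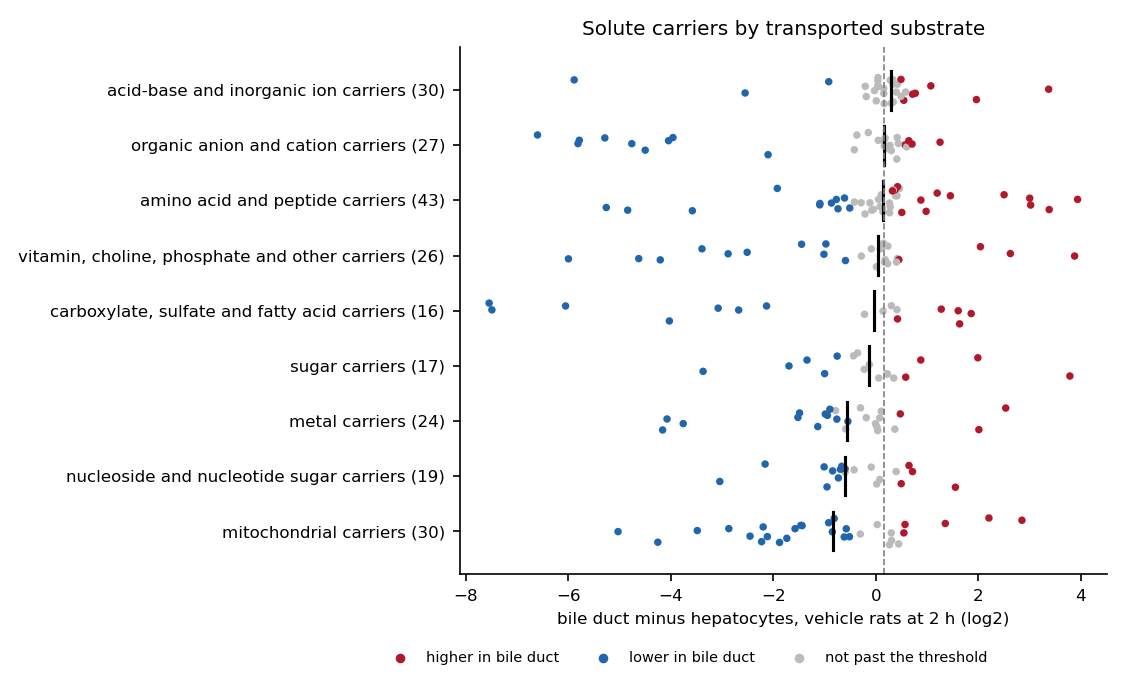
Difference between bile duct and hepatocytes in vehicle rats at 2 h (x axis, log2) for each carrier, by the class of solute its family moves (rows, with the number of genes). Each point is 1 gene, black bars are class medians and the dashed line is the median of all probe sets; mitochondrial carriers have 19 of 30 points called lower and a median of -0.83.

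For the class counts that follow, the shares of all probe sets in vehicle rats at 2 h were 28.7% higher and 23.5% lower. At 6 h they were 29.3% and 24.4%. Fatty acid, carboxylate and sulfate carriers held the largest differences. Of 16 genes, 5 were higher in bile duct at 2 h, 7 were lower and 4 were not called, with a class median of -0.04 where all probe sets had 0.16. Slc27a2, which takes up long-chain fatty acids and activates very long ones to acyl-CoA, read 2.92, 2.40, 3.19, 4.51 and 2.57 on the 5 vehicle bile duct arrays at 2 h and 10.67, 10.60, 10.71, 10.69 and 10.65 on the 5 hepatocyte arrays. The groups lay more than 6 units apart. The difference was -7.55 ± 0.31 (187-fold, adjusted p = 1.95e-10). At 6 h it was -5.00 ± 0.85 (adjusted p = 0.000388), and the bile duct arrays then read 6.94, 3.77, 9.02 and 3.77, with the highest value on the array whose hepatocyte markers were also the highest of its group. Whether these markers account for that value was not tested.

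Slc27a5, which joins bile acids to coenzyme A before conjugation, differed by -7.49 ± 0.34 (180-fold, adjusted p = 5.14e-10) at 2 h and -4.98 ± 0.50 at 6 h. The sodium-sulfate cotransporter Slc13a4 was at 2.52 to 2.85 on bile duct arrays and 8.44 to 8.95 on hepatocyte arrays at 2 h. Its difference, -6.05 ± 0.14 (66.4-fold, adjusted p = 2.5e-12), was -5.00 ± 0.31 at 6 h. Other members of the same families were higher in bile duct. The fatty acid carriers Slc27a3 and Slc27a4 were higher by 1.86 ± 0.25 and 1.64 ± 0.16 at 2 h, and the monocarboxylate family member Slc16a6 by 1.61 ± 0.20. All 3 were called at both times in vehicle rats.

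Organic anion and cation carriers numbered 27, of which 9 were lower in bile duct at 2 h, 4 were higher and 14 were not called, with a class median of 0.15. The basolateral uptake carriers of hepatocytes for drugs and bile acids were listed separately, with 6 of 9 measured. All 6 were lower in bile duct in every one of the 4 tissue comparisons, vehicle and ANIT at both times. Their median was -5.54 at 2 h and -4.14 at 6 h in vehicle rats, where all probe sets had 0.16 and 0.23. Each of the 6 probe sets lies above the median level as a mean over both tissues, which does not show that it is bright in bile duct.

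Slco1a4, an organic anion transporting polypeptide of the sinusoidal membrane, read 2.86, 3.48, 2.94, 3.6 and 3.08 in bile duct and 9.94, 9.88, 9.95, 9.76 and 9.44 in hepatocytes of vehicle rats at 2 h. Its 2 groups were again far apart. The difference was -6.60 ± 0.18 (97.1-fold, adjusted p = 6.11e-12) at 2 h and -5.32 ± 0.30 at 6 h. The liver-specific Slco1b2 differed by -5.81 ± 0.24 at 2 h, Slco1a1 by -4.76 ± 0.19 and Slco2b1 by -4.04 ± 0.29. Among the organic anion transporters, Slc22a8 differed by -5.79 ± 0.22 and Slc22a7 by -5.29 ± 0.23. In the opposite direction, Slco3a1, a prostaglandin and thyroid hormone carrier of wide distribution, was higher in bile duct by 1.25 ± 0.20 (adjusted p = 0.000156) at 2 h and 1.26 ± 0.24 at 6 h. Slco1c1 and Slco1a6, both at a mean level under 2.5 in bile duct, were higher by 0.64 ± 0.15 and 0.71 ± 0.21 at 2 h.

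Most mitochondrial carriers of the Slc25 family were lower in bile duct. Of 30 genes, 19 were lower in bile duct at 2 h, 5 were higher and 6 were not called. Their median was -0.83, and 25 of the 30 lie above the median level. Of all 121 members above that level 62.8% were lower at 2 h, and of all probe sets above it 39.1%. At 6 h 18 were lower and 4 higher, with a median of -0.97. Slc25a15, which exchanges ornithine and citrulline for the urea cycle, read 3.11, 4.41, 3.51, 4.37 and 3.70 in vehicle bile duct at 2 h and 9.16, 8.73, 8.99, 8.88 and 8.49 in hepatocytes. No bile duct value came near the hepatocyte range, and the difference was -5.03 ± 0.24 (32.7-fold, adjusted p = 8.53e-10). The aspartate-glutamate carrier Slc25a13 differed by -4.25 ± 0.17 and the glutamate carrier Slc25a22 by -3.48 ± 0.25.

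The adenine nucleotide carrier Slc25a4 went the other way, with 7.24, 7.5, 7.98, 7.55 and 7.27 in bile duct and 4.55, 4.89, 4.55, 4.81 and 4.48 in hepatocytes. It was higher in bile duct by 2.85 ± 0.17 (7.22-fold, adjusted p = 5.64e-09) at 2 h and by 2.07 ± 0.27 at 6 h. The pyrimidine nucleotide carrier Slc25a36 was higher by 2.21 ± 0.19 at 2 h and 2.06 ± 0.22 at 6 h. The dim Slc25a27 was higher by 0.57 ± 0.18 at 2 h, a difference that quantile normalization lowered to 0.30 (adjusted p = 0.174).

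Amino acid and peptide carriers were the largest class and split between the tissues. Of 43 genes, 13 were higher in bile duct at 2 h, 11 were lower and 19 were not called, with a median of 0.14. At 6 h 21 were higher (background 29.3%) and 9 lower (background 24.4%), with a median of 0.78. Slc7a1, the cationic amino acid transporter that takes up arginine and lysine, read 7.10, 6.68, 6.74, 7.65 and 8.18 in vehicle bile duct at 2 h. The hepatocyte arrays read 2.83, 3.68, 3.45, 3.49 and 3.21, all below the lowest bile duct array. The difference, 3.94 ± 0.27 (15.3-fold, adjusted p = 3.42e-08), exceeded that of every other member called higher at 2 h. A second, dimmer Slc7a1 probe set differed by 1.23 (adjusted p = 9.47e-05), and another, the dimmest, by 0.21 (adjusted p = 0.304).

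The glutamate transporter Slc1a3 was higher in bile duct by 3.38 ± 0.24 (adjusted p = 4.87e-08) and the neutral amino acid transporter Slc38a1 by 3.02 ± 0.33 (adjusted p = 3.38e-06). The other 2 Slc1a3 probe sets, both dimmer, differed by -0.82 (adjusted p = 0.149) and 0.21 (adjusted p = 0.297). The proton-coupled peptide transporter Slc15a1 was higher by 3.00 ± 0.44, with bile duct arrays spread from 3.6 to 6.37 and hepatocyte arrays from 1.66 to 2.66. On the hepatocyte side, the glutamine transporter Slc38a3 read 3.90 to 4.71 in bile duct and 9.04 to 9.87 in hepatocytes. It was lower in bile duct by -5.26 ± 0.19 on the log2 scale (adjusted p = 5.2e-11), its paralog Slc38a4 by -4.84 ± 0.22 and the GABA and taurine transporter Slc6a13 by -3.58 ± 0.31.

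Of 17 genes grouped as sugar carriers by family, 4 were higher in bile duct at 2 h and 5 lower, with a median of -0.12. Slc2a1, the glucose transporter of most epithelia, read 7.34, 7.75, 7.83, 6.99 and 7.36 in bile duct and 5.63, 5.58, 5.42, 5.16 and 5.52 in hepatocytes. It was higher by 1.99 ± 0.18 (adjusted p = 4.27e-07) at 2 h and 2.33 ± 0.28 at 6 h. Slc2a2, the low-affinity glucose transporter known as that of hepatocytes, read 7.91, 8.09, 8.27, 8.62 and 8.61 in bile duct at 2 h and 8.54, 8.06, 8.91, 8.62 and 8.50 in hepatocytes.

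The 2 groups of Slc2a2 overlapped. Its difference of -0.23 ± 0.19 was not past the threshold (adjusted p = 0.329) and became 0.22 under quantile normalization. At 6 h vehicle bile duct was lower for Slc2a2 by -1.65 ± 0.28 on the log2 scale (adjusted p = 0.000334). A pair of endoplasmic reticulum glucose-6-phosphate carriers stood opposite each other. Slc37a1 was higher in bile duct by 3.79 ± 0.21 at 2 h, and Slc37a4, which feeds glucose-6-phosphatase, differed by -3.37 ± 0.20. The sodium-glucose cotransporter Slc5a1 was higher by 0.88 ± 0.22 at 2 h and 1.60 ± 0.26 at 6 h. The fructose transporter Slc2a5 and the multivitamin transporter Slc5a6 differed by -1.0 ± 0.25 and -1.34 ± 0.31 at 2 h.

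Metal carriers were lower in bile duct for 11 of 24 genes at 2 h and higher for 3, with a median of -0.57. The zinc and manganese importers Slc39a8 and Slc39a14 differed by -4.16 ± 0.30 and -4.07 ± 0.18, and the copper importer Slc31a1 by -3.76 ± 0.19. Slc31a1 read 4.38 to 5.37 in bile duct and 8.56 to 8.97 in hepatocytes. The magnesium carrier Slc41a1 was higher in bile duct by 2.54 ± 0.17 and the zinc importer Slc39a10 by 2.01 ± 0.26.

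Among 30 acid-base and inorganic ion carriers, 7 were higher in bile duct at 2 h (background 28.7%), 3 lower (background 23.5%) and 20 not called. Slc12a2, the basolateral sodium-potassium-chloride cotransporter of secretory epithelia, read 9.13, 9.0, 9.54, 9.76 and 10.10 in bile duct and 6.05, 6.49, 5.81, 6.16 and 6.15 in hepatocytes. It was higher by 3.37 ± 0.21 (10.4-fold, adjusted p = 1.18e-08) at 2 h and 2.52 ± 0.20 at 6 h. The anion exchanger Slc4a3 was higher by 1.07 ± 0.18 at 2 h. The chloride-bicarbonate exchanger Slc26a3, at a mean level of 1.99 in bile duct, was higher by 0.55 ± 0.18, which quantile normalization took to 0.33 (adjusted p = 0.113). The sulfate and oxalate exchanger Slc26a1 differed by -5.89 ± 0.21 and Slc26a8, another anion exchanger of its family, by -2.55 ± 0.20.

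Vitamin, choline, phosphate and other carriers included 10 of 26 lower in bile duct at 2 h and 4 higher. The organic anion and phosphate carriers Slc17a3 and Slc17a1 differed by -6.00 ± 0.15 and -4.63 ± 0.25, and the proton-coupled folate transporter Slc46a1 by -4.21 ± 0.20. Slc44a4, a choline transporter-like protein, read 6.76, 5.56, 6.20, 6.75 and 6.73 in bile duct and 2.34, 2.64, 2.78, 2.59 and 2.25 in hepatocytes. It was higher in bile duct by 3.88 ± 0.23 (adjusted p = 6.2e-09), and the riboflavin transporter Slc52a3 by 2.63 ± 0.17. Of 19 nucleoside and nucleotide sugar carriers, 9 were lower and 4 higher, with a median of -0.60. The equilibrative nucleoside transporter Slc29a1 differed by -2.16 ± 0.21 and the acetyl-CoA carrier Slc33a1 by -3.04 ± 0.23, whereas the concentrative purine nucleoside transporter Slc28a2 was higher in bile duct by 1.55 ± 0.38.

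The second question was whether these differences recurred. In vehicle rats 34 members were higher in bile duct at both times (14.5%, background 16.7%) and 69 lower (29.5%, background 18.2%). Across all 4 tissue comparisons, 26 were higher each time (11.1%, background 11.0%), of which 11 lay above the median level. There were 62 lower each time (26.5%, background 15.0%), of which 60 did. The ANIT groups gave 144 called members at 2 h (background 54.6%) and 120 at 6 h (background 47.5%). At 2 h 56 were higher and 88 lower, with backgrounds of 30.9% and 23.6%, and at 6 h 43 were higher and 77 lower, with backgrounds of 25.8% and 21.7%. Called in no comparison were 34 members (14.5%, background 19.0%), 26 of them below the median level. With the array numbers in the labels as a block for a possibly shared rat, 131, 131, 138 and 117 members were called in vehicle rats at 2 and 6 h and ANIT rats at 2 and 6 h.

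**Figure D2:**
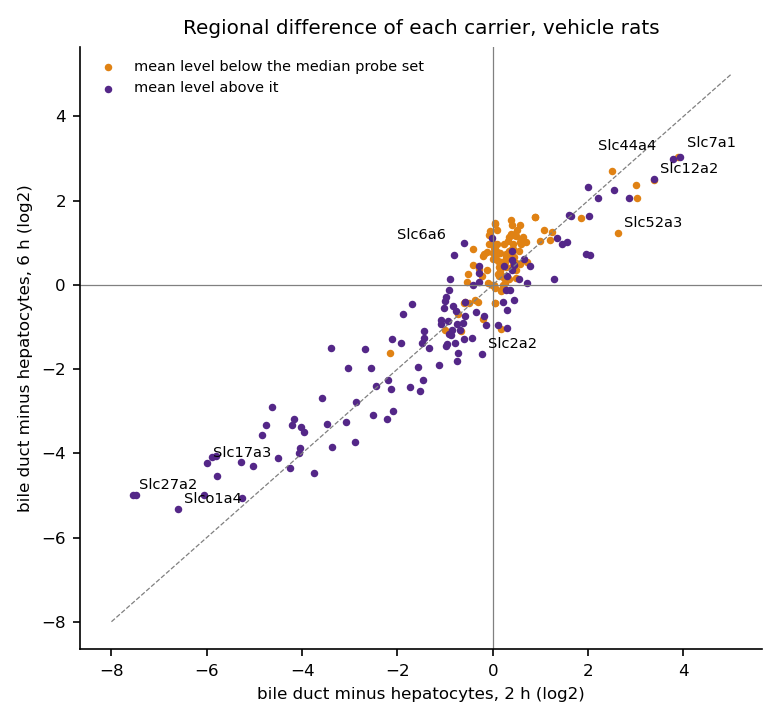
Difference between bile duct and hepatocytes in vehicle rats at 2 h (x axis, log2) and at 6 h (y axis, log2), 1 point per carrier, purple above and orange below the median probe set level of 4.1, with the dashed line marking equality. Most genes lower in bile duct lie nearer 0 at 6 h, such as Slc27a2 at -7.55 and -5.00, and Slc2a2 moves from -0.23 to -1.65.

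The tissue difference itself changed between 2 and 6 h in vehicle rats for 32 members (13.7%, background 13.2%), upward for 26 (background 5.45%) and downward for 6 (background 7.73%). With each array centred on its median the same test called 31, 20 upward and 11 downward, and after quantile normalization it called 13. Leaving out 1 array at a time gave 17 to 64 members, with 64 without vehicle bile duct array 4 at 6 h. Slc17a3 moved by 1.76 ± 0.29 (adjusted p = 0.00116) and Slco1a1 by 1.44 ± 0.30, both from lower in bile duct towards 0. The vehicle bile duct arrays at 6 h are those with the wider range of hepatocyte markers and the narrow spread, and the part of either in these changes was not tested. The proline transporter Slc6a7 moved by 1.32 ± 0.27, from a bile duct level of 3.66 ± 0.25 at 2 h to 4.99 ± 0.36 at 6 h with hepatocytes at 3.71 and 3.72. Downward changes included Slc2a2 by -1.42 ± 0.34, Slc52a3 by -1.39 ± 0.33 and the choline transporter Slc44a1 by -1.34 ± 0.38. The other Slc44a1 probe sets, both dimmer, moved by 0.42 (adjusted p = 0.443) and 0.26 (adjusted p = 0.726), so its probe sets differed in direction.

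Called in both directions in different comparisons were 8 members, Slc11a2, Slc20a1, Slc28a2, Slc30a2, Slc35b2, Slc39a4, Slc3a2 and Slc6a6. The taurine transporter Slc6a6 differed by -0.61 ± 0.24 (adjusted p = 0.0485) in vehicle rats at 2 h and was higher in bile duct by 1.00 ± 0.39 (adjusted p = 0.0435) at 6 h. Its bile duct level was 5.97 ± 0.61 at 2 h and 5.65 ± 0.90 at 6 h, and its hepatocyte level 6.58 ± 0.10 and 4.65 ± 0.49. The arrays of the 2 tissues overlapped at both times. A second Slc6a6 probe set was higher in bile duct already at 2 h, by 0.56 (adjusted p = 0.02), so the 2 probe sets disagreed there.

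Some paralogs of 1 family stood on opposite sides. In 16 of the 37 families with at least 2 members, at least 1 member was higher and at least 1 lower in bile duct at both times in vehicle rats. Of all members 14.5% were higher and 29.5% lower at both times (backgrounds 16.7% and 18.2%). How many families would hold both directions from these shares alone was not calculated. The pairs with the largest summed difference were Slc27a3 against Slc27a2, Slc38a1 against Slc38a3, Slc25a4 against Slc25a15 and Slco3a1 against Slco1a4. The Slc25 family held 3 genes higher and 16 lower at both times, and the Slco family 3 higher and 5 lower. Neighbours in the genome showed both patterns. Slco1b2, Slco1a4 and Slco1a1 follow each other on the rat assembly GRCr8 and were all lower in bile duct. On one side of them the dim Slco1c1 was higher. On the other side lie Slco1a3 and Slco1a5, not called at 2 h (0.15 and 0.05). Between these lies the dim Slco1a6, higher by 0.71. Slc38a1, Slc38a2 and Slc38a4 also adjoin, and of these Slc38a1 was higher at 2 h, Slc38a4 was lower and Slc38a2 differed by 0.44 ± 0.19 (adjusted p = 0.0672). Probe sets of the same gene did not always give the same call. Of the 26 called members with several probe sets at 2 h, 14 had another called the same way, 11 had none and 1, Slc6a6, had one called the opposite way.

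**Figure D3:**
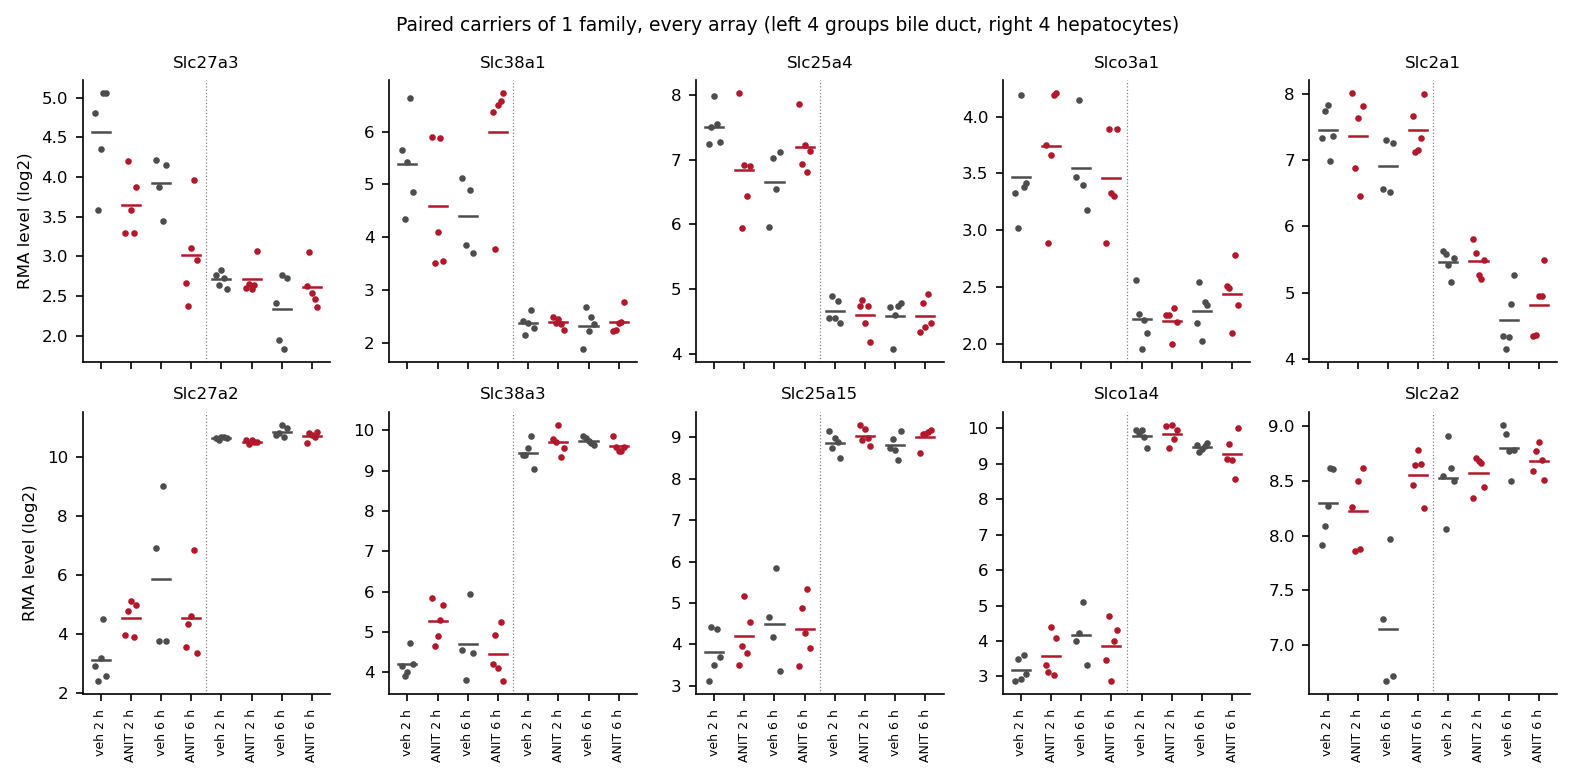
RMA level (y axis, log2, a separate scale per gene) on every array for 5 pairs of carriers of 1 family, upper and lower row, with bile duct groups left of the dotted line and hepatocyte groups right of it, vehicle in grey, ANIT in red and bars for group means. In vehicle rats the upper genes sit higher in bile duct and the lower ones in hepatocytes, except Slc2a2, which overlaps at 2 h and drops to 7.15 in vehicle bile duct at 6 h.

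The third question was what a dose of ANIT did within each tissue. At 2 h in bile duct, the phosphate transporter Slc20a1 and the glycine transporter Slc6a9 rose, and the glutamate transporter Slc1a3 and the mitochondrial carrier Slc25a48 fell. These 4 of 234 members (1.71%) were the only ones called by limma fitted on the arrays of this comparison, where 1.12% of all probe sets were, 0.258% higher and 0.863% lower. The count depended on the fit, since limma called 32 members in one fit over all 39 arrays and 13 with array weights, each including these 4. The shares of all probe sets called in those fits are not given here. In all, 42 members had an unadjusted p under 0.05 (17.9%, background 16.9%). ANIT comparisons share vehicle arrays with the tissue comparisons above, so neither is independent evidence for the other.

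Slc20a1, a sodium-phosphate cotransporter of the plasma membrane, read 5.71, 6.29, 5.43, 5.37 and 6.69 on vehicle bile duct arrays and 7.94, 8.02, 7.75, 7.97 and 6.70 after ANIT at 2 h. The fifth ANIT array lay just above the highest vehicle array and the other 4 above 7.7. The rise was 1.78 ± 0.32 (3.43-fold, adjusted p = 0.0185). Slc6a9 read 4.46 to 5.39 with vehicle and 5.87 to 7.63 with ANIT, a rise of 1.69 ± 0.31 (adjusted p = 0.0196). Its other probe sets, both dimmer, changed by 0.75 (adjusted p = 0.173) and 0.58 (adjusted p = 0.313). In ANIT rats at 2 h bile duct differed from hepatocytes by -0.17 ± 0.30 for Slc6a9 (adjusted p = 0.631). Its hepatocyte change with ANIT was -0.05 ± 0.22, so with vehicle its bile duct mean lay below its hepatocyte mean.

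Slc1a3 read 5.19, 6.61, 6.40, 5.96 and 6.05 with vehicle and 3.59, 3.85, 2.84, 2.77 and 5.09 with ANIT at 2 h. It changed by -2.41 ± 0.40 (5.33-fold lower, adjusted p = 0.0157), with the fifth ANIT array nearest the vehicle range. Its other 2 probe sets changed by -0.35 (adjusted p = 0.443) and 0.49 (adjusted p = 0.396), so this call rests on 1 of 3 probe sets. Slc25a48 read 6.03 to 6.63 with vehicle and 4.34 to 5.14 with ANIT and changed by -1.63 ± 0.24 (3.10-fold lower, adjusted p = 0.00721). A second Slc25a48 probe set changed by -0.28 (adjusted p = 0.567), so this call too rests on 1 probe set.

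Hepatocyte markers in these bile duct captures moved upward as well, with a median of 1.45 over the 17 genes and none called. The 14 cholangiocyte markers had a median change of -0.31, and 1 of them, Onecut1, was called lower (-2.03, adjusted p = 0.0172). Their mean level per array was 8.75 to 9.37 with vehicle and 7.84 to 8.94 with ANIT, and their part in the changes was not tested. With each array's hepatocyte marker level as a covariate the 4 changes kept a similar size, 2.06, 1.66, -2.34 and -1.79 for Slc20a1, Slc6a9, Slc1a3 and Slc25a48, but none passed (adjusted p = 0.0948 to 0.118). Leaving out 1 array at a time, Slc25a48 passed in 10 of 10 fits, Slc1a3 in 9, and Slc20a1 and Slc6a9 in 7 each. Without vehicle array 3 only 1 member was called, without vehicle array 1 there were 2, and without ANIT array 2 there were 11.

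At 6 h in bile duct, the single genes that rose were Slc7a1, Slc3a2, Slc39a10, Slc20a1, Slc1a5, Slc30a5, Slc2a2, Slc25a5, Slc38a2 and Slc20a2, and those that fell were Slc25a23, Slc28a2, Slc23a1 and Slc1a3. Of 234 members 14 were called (5.98%, background 6.51%), 10 higher (background 5.17%) and 4 lower (background 1.34%). The share called was near that of the whole array, and no class of carriers is read as changed from it. One limma fit over all 39 arrays called 63 members, including these 14, and its share of all probe sets is not given here. The median member changed by -0.15, where the median probe set changed by -0.05.

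Slc7a1 read 8.29, 7.38, 7.68 and 7.68 on the 4 vehicle bile duct arrays and 10.21, 10.21, 9.94, 10.39 and 10.51 on the 5 ANIT arrays. Every ANIT array was more than 1.6 units above the highest vehicle array. The rise was 2.49 ± 0.28 (5.63-fold, adjusted p = 0.000691). A second Slc7a1 probe set rose by 2.01 (adjusted p = 0.00545), and the dimmest changed by -1.0 (adjusted p = 0.0761). In the authors' deposited table the log10 ratio of Slc7a1 was 0.447, a 2.80-fold rise.

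Slc3a2, the heavy chain that pairs with several amino acid transporters to bring them to the membrane, read 6.23, 6.34, 5.38 and 6.30 with vehicle and 7.87, 8.26, 7.11, 8.05 and 8.99 with ANIT. Its groups did not overlap, and the rise was 1.99 ± 0.37 (3.98-fold, adjusted p = 0.00746). Slc1a5, a neutral amino acid exchanger that takes up glutamine, read 2.95 to 3.80 with vehicle and 4.61 to 5.51 with ANIT, a rise of 1.72 ± 0.30 (adjusted p = 0.00548). Slc38a2, a sodium-coupled neutral amino acid transporter, rose by 1.30 ± 0.35 (adjusted p = 0.0374), with 1 vehicle array at 8.13 above the lowest ANIT array at 8.02.

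The zinc importer Slc39a10 read 4.62, 4.79, 4.76 and 6.15 with vehicle and 7.19, 6.97, 6.47, 6.78 and 7.17 with ANIT. The fourth vehicle array stood apart from its group, and all ANIT arrays were above it. The rise was 1.84 ± 0.35 (3.57-fold, adjusted p = 0.00793). Slc30a5, which loads zinc into the secretory pathway, rose by 1.55 ± 0.31 (adjusted p = 0.0101). The paralogs Slc20a1 and Slc20a2 rose by 1.82 ± 0.35 (adjusted p = 0.00896) and 1.21 ± 0.34 (adjusted p = 0.0444). A second, dimmer Slc20a2 probe set changed by -0.28 (adjusted p = 0.674).

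Slc2a2 read 7.24, 6.67, 7.97 and 6.72 with vehicle and 8.46, 8.64, 8.78, 8.65 and 8.25 with ANIT, a rise of 1.41 ± 0.32 (2.65-fold, adjusted p = 0.0169). The ANIT arrays at 6 h lay near both bile duct groups at 2 h, which had means of 8.30 and 8.22, and the vehicle arrays at 6 h below them. In the authors' deposited table the rise of Slc2a2 was 1.27-fold with a p-value of 0.155. The adenine nucleotide carrier Slc25a5 rose by 1.35 ± 0.34 (adjusted p = 0.0281). Vehicle bile duct means at 6 h were below those at 2 h for Slc25a5 as well, at 6.42 and 7.67, for Slc30a5, at 6.00 and 6.80, and for Slc20a2, at 3.38 and 4.30.

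Of the carriers that fell, Slc28a2 read 6.95, 7.77, 6.81 and 7.62 with vehicle and 5.30, 5.95, 5.54, 5.89 and 4.62 with ANIT. It changed by -1.83 ± 0.34 (3.55-fold lower, adjusted p = 0.00793), and its groups did not overlap. Slc25a23, a calcium-dependent carrier that exchanges ATP-magnesium for phosphate, read 8.50 to 8.96 with vehicle and 5.56 to 8.21 with ANIT and changed by -2.06 ± 0.46 (adjusted p = 0.0162). The ascorbate transporter Slc23a1 changed by -1.47 ± 0.41 (adjusted p = 0.0467) with overlapping arrays, and Slc1a3 by -1.36 ± 0.34 (adjusted p = 0.0296). The other Slc1a3 probe sets changed by -0.18 and 0.095, neither called. Slc20a1 and Slc1a3 were the 2 members called in bile duct at both times.

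Hepatocyte markers were lower in these ANIT captures, with a median of -1.60 over the 17 genes and none called. Cholangiocyte markers were higher, with a mean level of 7.57 to 8.60 on vehicle arrays and 8.67 to 8.80 on ANIT arrays, which did not overlap, and the vehicle mean was 8.05 at 6 h against 9.02 at 2 h. Of the 14, Cldn4 and Cldn7 rose, by 2.97 and 2.87, and the list median was 0.34. The part of these markers in the carrier changes was not tested. With each array's hepatocyte marker level as a covariate 11 of the 14 members passed, and Slc20a2, Slc23a1 and Slc1a3 did not (adjusted p = 0.111, 0.109 and 0.055). In that fit Slc7a1 rose by 2.56 and Slc2a2 by 1.64. No fit took the cholangiocyte marker level as a covariate. When arrays were left out in turn, Slc7a1, Slc3a2, Slc39a10, Slc20a1, Slc1a5, Slc30a5, Slc2a2, Slc25a23 and Slc28a2 passed in 9 of 9 fits. Slc1a3 passed in 4, Slc25a5 and Slc23a1 in 3, and Slc38a2 and Slc20a2 in 2. Leaving out ANIT array 1 or ANIT array 5 gave 9 called members.

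**Figure D4:**
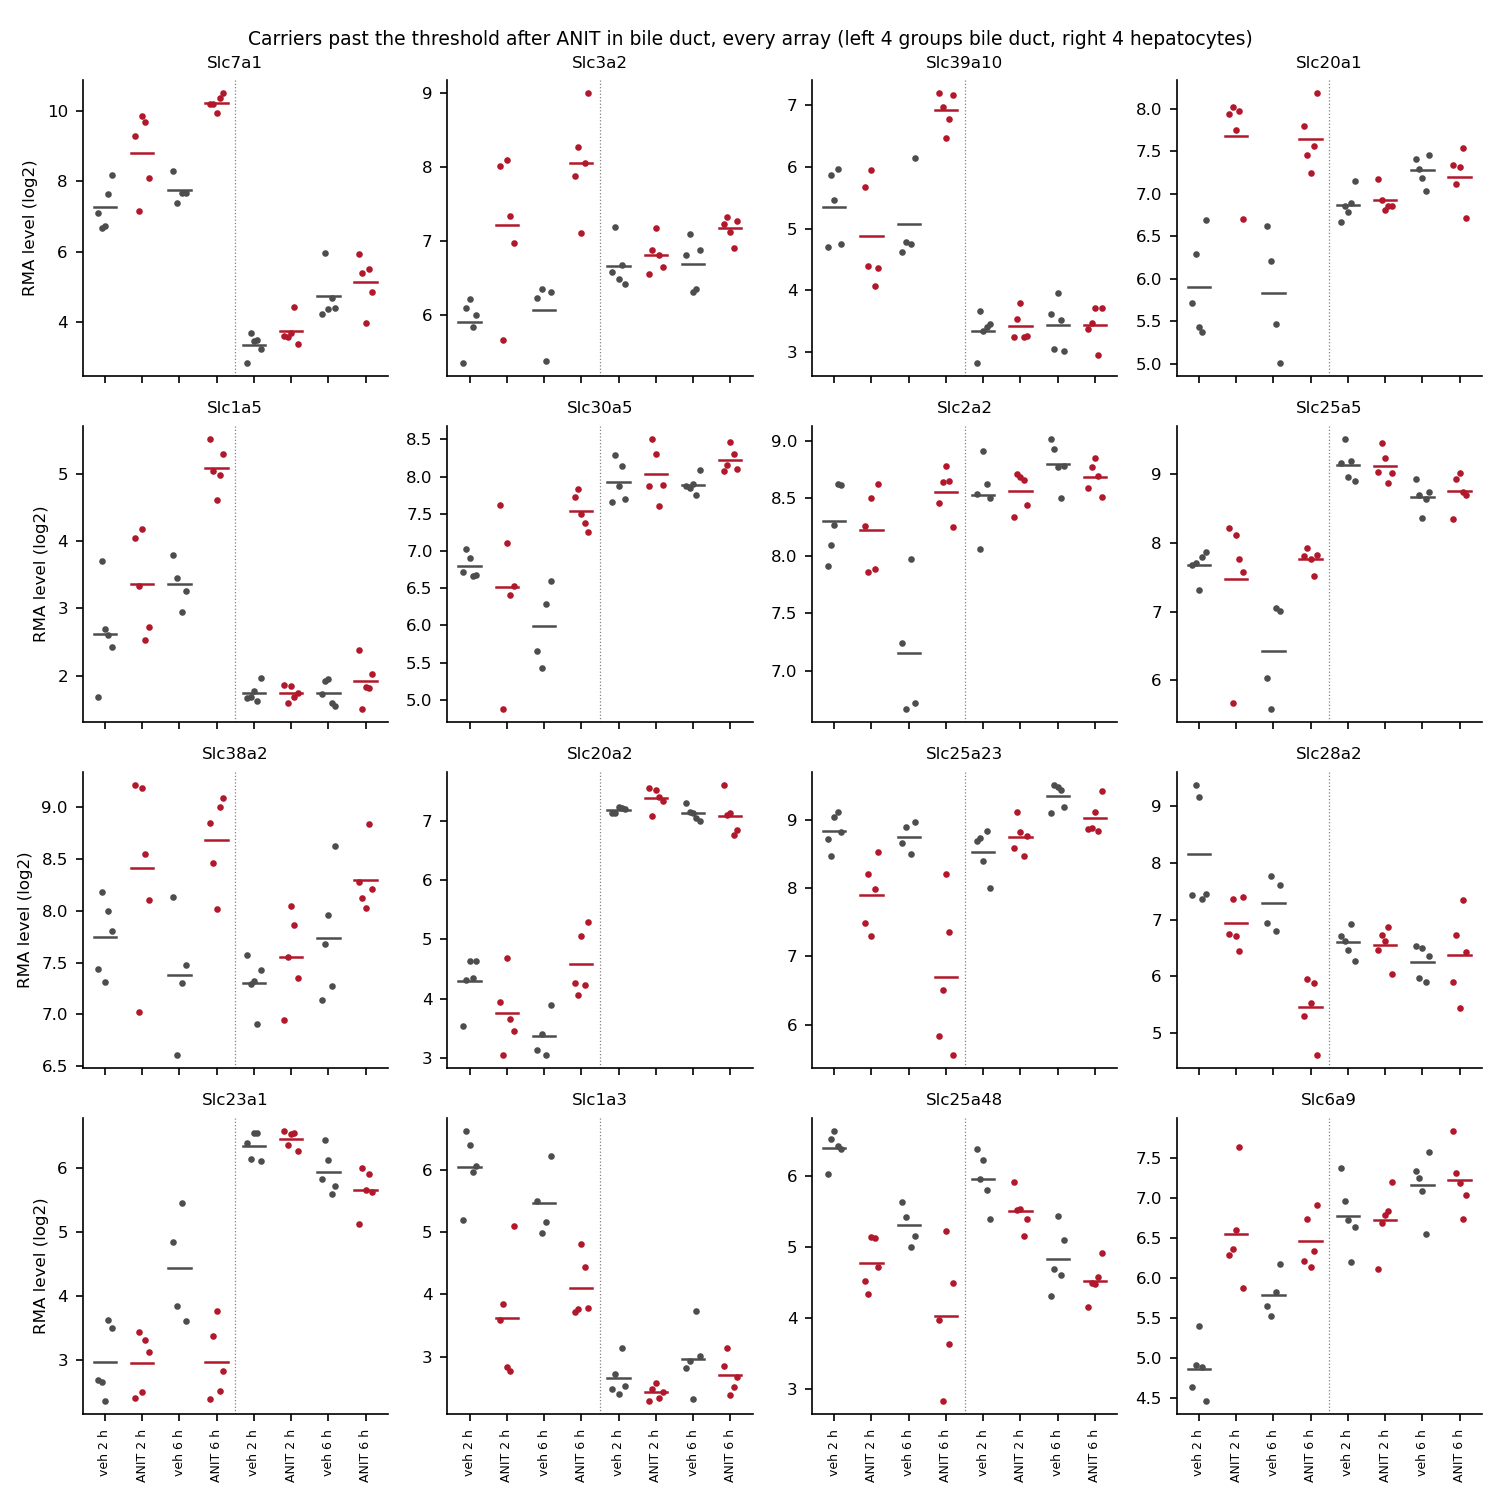
RMA level (y axis, log2, a separate scale per gene) on every array of the 16 carriers called after ANIT in bile duct at 2 or 6 h, with bile duct groups left of the dotted line and hepatocyte groups right of it, vehicle in grey, ANIT in red and bars for group means. Slc7a1 reaches 9.94 to 10.51 in bile duct at 6 h after ANIT against 7.38 to 8.29 with vehicle, and no hepatocyte group changes past the threshold.

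Amino acid carriers described as targets of the transcription factors ATF4, which acts in amino acid shortage and endoplasmic reticulum stress, and NRF2, which acts in oxidative stress, formed a list with 8 of 11 genes measured. The list was drawn up with earlier results of these data known and is no independent evidence. In bile duct at 6 h, 4 of the 8 rose (Slc7a1, Slc3a2, Slc1a5 and Slc38a2), 1 fell (Slc1a3) and 3 did not pass, with a list median of 0.99 where all probe sets had -0.05. Those that did not pass changed by 0.67 ± 0.29 (Slc6a9), 0.47 ± 0.41 (Slc7a3) and 0.35 ± 0.40 (Slc7a5). At 2 h the median was 0.71 where all probe sets had 0.03, and Slc6a9 rose and Slc1a3 fell.

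At 2 h the values of Slc7a1 were 9.31, 7.16, 9.87, 9.69 and 8.09 with ANIT against 6.68 to 8.18 with vehicle. The groups overlapped, and the difference of 1.55 ± 0.47 did not pass (adjusted p = 0.112). Slc3a2 stood at 1.32 ± 0.39 at 2 h (adjusted p = 0.104), with 5.66 on the second ANIT array and 6.97 to 8.09 on the others.

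**Figure D5:**
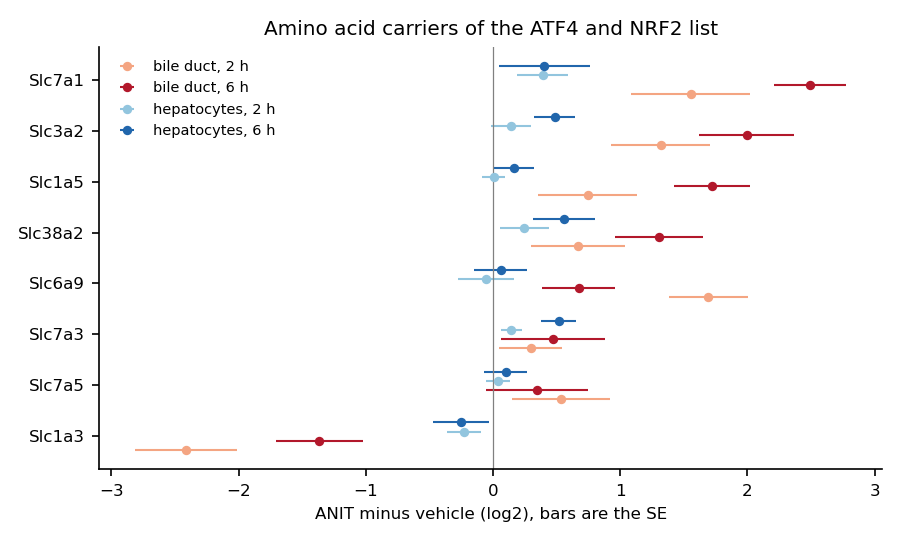
Change after ANIT (x axis, log2, points with SE bars) of the 8 measured amino acid carriers of the ATF4 and NRF2 list in bile duct and hepatocytes at 2 and 6 h. In bile duct at 6 h Slc7a1 stands at 2.49, Slc3a2 at 1.99, Slc1a5 at 1.72 and Slc38a2 at 1.30, Slc1a3 lies at -1.36, and no hepatocyte point passed the threshold.

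Promoters of the members were read from RefSeq on GRCr8, as the 250 bases before the annotated start, for 198 of 234 genes. Both strands were searched for TGATGNAA, a core of the sites that ATF4 binds, and TGACNNNGC, the core of the antioxidant response element through which NRF2 acts. The first occurred in 6 of 198 members and in 3.27% of all 27457 promoters, and the second in 33 members (16.7%) and 10.2% of all promoters. Of the 7 genes with a promoter that rose in bile duct at 6 h, Slc7a1 held the first and Slc7a1, Slc30a5 and Slc38a2 the second. None of the 4 that fell held either. A match describes letters only and shows no binding.

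The Slc7a1 promoter is printed because this gene had the largest rise of the 10 and holds both motifs, at chr12:11664238-11664487 on the plus strand. The shorter stretches are the motif with 20 bases on each side for Slc30a5, at chr2:33709965-33710013, and Slc38a2, at chr7:129742641-129742689, both on the minus strand and written 5′ to 3′ along the gene. Capitals mark the matches. In Slc7a1 these are TGACNNNGC on the opposite strand, 107 to 99 bases before the start, and TGATGNAA 30 to 23 bases before it.
Slc7a1: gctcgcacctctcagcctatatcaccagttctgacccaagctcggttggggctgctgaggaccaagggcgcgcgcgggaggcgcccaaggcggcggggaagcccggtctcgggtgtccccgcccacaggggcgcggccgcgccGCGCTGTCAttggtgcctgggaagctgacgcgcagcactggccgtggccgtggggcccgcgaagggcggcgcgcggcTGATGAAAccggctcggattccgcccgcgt
Slc30a5: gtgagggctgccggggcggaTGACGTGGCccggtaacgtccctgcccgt
Slc38a2: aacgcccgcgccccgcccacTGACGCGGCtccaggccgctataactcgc

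In hepatocytes no member was called by limma after ANIT at either time, and neither was any other probe set (0.0%). At 2 h 11 members had an unadjusted p under 0.05 (4.70%, background 7.53%) and at 6 h 23 (9.83%, background 8.1%). Adjusting the p-values of the authors' deposited tables left 0 members too, with 2 probe sets of the whole array called at 2 h and 3 at 6 h. The smallest p at 2 h were those of Slc13a4, at -0.55 ± 0.11, and of the zinc carrier Slc30a2, at -0.73 ± 0.15 (adjusted p = 0.39 for both). At 6 h the smallest belonged to the cationic amino acid transporter Slc7a3, at 0.52 ± 0.14 (adjusted p = 0.347), and Slc26a8, at 0.55 ± 0.15 (adjusted p = 0.375). Slc13a4 stood at -0.71 ± 0.20 at 6 h (adjusted p = 0.385), with vehicle arrays at 8.59 to 9.01 and ANIT arrays at 7.35 to 8.62. None of the 6 hepatocyte uptake carriers was called at either time in either tissue.

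Whether ANIT acted differently in the 2 tissues was tested as the difference of its effects. At 6 h the effect in bile duct exceeded or fell below that in hepatocytes for 12 members (5.13%, background 7.05%), 9 upward (background 5.21%) and 3 downward (background 1.84%). Slc7a1 differed by 2.09 ± 0.48 (adjusted p = 0.0103), its hepatocyte change being 0.40 ± 0.36. The differences of Slc20a1, Slc39a10, Slc1a5 and Slc2a2 were 1.89 ± 0.38, 1.83 ± 0.39, 1.56 ± 0.31 and 1.52 ± 0.32. Of the 14 cholangiocyte markers, Cldn4, Cldn7 and Epcam were called, upward by 2.85, 2.79 and 1.13. Onecut1, Sctr, Ggt1, Krt19 and Anxa4 differed downward, by -1.44, -0.40, -0.35, -0.25 and -0.17, none called. The rest of that list differed upward without a call. Downward, Slc28a2 differed by -1.94 ± 0.46 and Slc25a23 by -1.74 ± 0.49. At 2 h there were 5 members (2.14%, background 1.02%). Slc20a1, Slc6a9, Slc1a3 and Slc25a48 differed as they did in bile duct alone, and Slc30a2 differed by 1.41 ± 0.30 (adjusted p = 0.025) with neither tissue past the threshold by itself.

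Between 2 and 6 h the ANIT effect in bile duct differed for 7 members (2.99%, background 3.57%) and in hepatocytes for 0. There 21 members had an unadjusted p under 0.05 (8.97%, background 6.76%). Slc39a10 differed by 2.30 ± 0.54 (adjusted p = 0.029), having changed by -0.46 ± 0.39 at 2 h and risen at 6 h. The peroxisomal carrier Slc25a17 differed by 2.02 ± 0.47 and Slc2a2 by 1.48 ± 0.39. The count rested on single arrays, and it fell to 0 without vehicle array 4 or ANIT array 4 at 2 h, or without vehicle array 2 at 6 h, and rose to 17 without vehicle array 4 at 6 h.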

How the data were processed

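RNA from 39 laser captures was isolated with PicoPure, amplified and biotin-labelled with NuGen Ovation V2 and hybridised to an Affymetrix rat array, per the labels' protocols. The authors deposited log2 values from RMA, per the submitters' processing notes, whose version is not given in the sources used here, and these ran from 0.9 to 14.21 with no detection calls. They also deposited comparison tables of log10 ratios and p-values from Rosetta Resolver, per the labels, which are quoted only where named. The number of arrays limits the precision.

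From the RMA values, 57 array controls were left out, leaving 15866 probe sets. Of these, 12783 had 1 gene symbol, 312 had several and 2771 are not named here. Each comparison was fitted on its own arrays with limma 3.58.1 (lmFit and eBayes, R 4.3.3) without a replicate block, and p-values were adjusted by Benjamini-Hochberg over all 15866. Differences of effects were contrasts of group means. No 2 arrays were near-identical, with a highest correlation of 0.9929. The labels call arrays of a group biological replicates, so p-values measure the spread between those samples. The limma script was tested on simulated data.

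Named genes were the 10 members with the largest non-overlapping difference per direction in vehicle rats at 2 h, up to 3 per class and direction called at both times, up to 10 per direction for each ANIT comparison (the 3 with the smallest p where none was called), up to 5 per direction for each difference of effects, all members of the 2 short lists, and opposed paralogs of up to 4 families. Further genes, among them Slc6a6, Slc38a2, Slc1a3 probe sets and neighbours, were picked after their values were seen. The members and lists were chosen with earlier results of these data known. Alternatives were another normalization, array centring, a level filter, other variance models, array weights, a replicate block, stricter thresholds, a hepatocyte marker covariate, another choice of probe set and leaving out arrays.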

Additional observations from a re-analysis of the deposited data

Results flagged for a closer look

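A single array stood far from its group in 6 of 140 values examined, and chance gives about 1 in 20. After ANIT at 2 h in bile duct, Slc20a1 had 1 array at 6.7 with the others at 7.75 to 8.02, and Slc25a5 had 1 at 5.68 with the others at 7.58 to 8.21. In vehicle bile duct at 6 h, Slc39a10 had 1 of 4 arrays at 6.15 with the others at 4.62 to 4.79, and Slc3a2 had 1 at 5.38 with the others at 6.23 to 6.34. In vehicle hepatocytes at 6 h, Slc25a4 had 1 array at 4.07 with the others at 4.6 to 4.79, and Slc7a1 had 1 at 5.96 with the others at 4.22 to 4.69.

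The ANIT effect differed between bile duct and hepatocytes in limma's test of the difference. At 2 h the effect in bile duct minus that in hepatocytes was 1.726 for Slc20a1, 1.748 for Slc6a9, 1.41 for Slc30a2, -2.188 for Slc1a3 and -1.182 for Slc25a48. At 6 h the differences furthest past the threshold were 1.8925 for Slc20a1, 1.555 for Slc1a5, 1.522 for Slc2a2, 1.826 for Slc39a10 and 2.0925 for Slc7a1. On the negative side they were -1.9415 for Slc28a2, -1.7385 for Slc25a23 and -1.1445 for the amino acid transporter Slc6a17.

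Between the times, the bile duct effect of ANIT at 6 h minus that at 2 h was 2.02 for Slc25a17, 2.298 for Slc39a10, 1.6645 for Slc44a1, 1.482 for Slc2a2, 1.7405 for Slc20a2 and -1.598 for Slc30a2. The Slc44a1 probe set used changed after ANIT by -0.51 at 2 h and 1.15 at 6 h. Its dimmer probe sets changed by -0.36 and -0.13 at 2 h and by -0.18 and -0.72 at 6 h, none called. The tissue difference in vehicle rats at 6 h minus that at 2 h was 1.756 for Slc17a3, 1.3195 for Slc6a7, 1.438 for Slco1a1, 1.2745 for the organic anion transporter Slc22a6 and 1.4005 for the sulfate transporter Slc26a2. It was -1.422 for Slc2a2, -1.391 for Slc52a3, -1.34 for Slc25a17, -1.3405 for Slc44a1 and -1.143 for Slc16a12. For Slc44a1 the dimmer probe sets gave 0.42 and 0.26, neither called.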

How the results depend on the processing

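Adjusted p-values under 0.05 are counted throughout, and causes of the shifts were not tested. The shares of all probe sets called under these alternatives are not given. The counts therefore describe how stable the calls are and are not read as a trait of the carriers. Quantile normalization gave 102 called members for the tissue comparison in vehicle rats at 6 h (39 higher, 63 lower), 13 for its change with time and 0 for the change of the bile duct ANIT effect with time, and turned Slc7a5 to -0.14 and Slc2a2 to 0.22 in the tissue comparison at 2 h, neither called. It lowered the median of all probe sets in tissue comparisons from between 0.16 and 0.25 to between 0.04 and 0.09. Keeping only bright probe sets, and so fewer members, gave 90 for tissue at 6 h and 3 for ANIT by tissue at 2 h. A 2-fold minimum left 83 for tissue in vehicle rats at 2 h and 90 in ANIT rats at 2 h. One fit over all arrays gave 32 and 63 members for ANIT in bile duct at 2 and 6 h, including all 4 and all 14, and 55 for the change between them. Array weights gave 13 for ANIT in bile duct at 2 h, 8 and 5 for ANIT by tissue at 2 and 6 h, and 2 for ANIT by time in bile duct. The hepatocyte marker covariate left 0 for ANIT in bile duct at 2 h. Without ANIT bile duct arrays 2 and 4 at 2 h, whose values have a low spread, ANIT by tissue at 2 h gave 13 and ANIT by time in bile duct 0. At an adjusted p under 0.01 there remained 1 and 6 for ANIT in bile duct at 2 and 6 h, 0 and 4 for ANIT by tissue, 0 for ANIT by time in bile duct and 6 for tissue by time.

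Correlations of same-numbered deviations ran from -0.199 to 0.348, both in the ANIT comparison of hepatocytes at 2 h, and no comparison had every pair over 0.1. In tissue comparisons, where a rat may be shared, they ran from -0.091 to 0.129. By replicate number, 3 of 5 pairs matched best in vehicle rats at 2 h and in ANIT rats at 6 h. None did (0) in the other tissue comparisons. Low correlations do not exclude shared rats, so whether the array numbers pair the arrays was not decided. With the replicate block 8 members were called for ANIT in bile duct at 6 h, 3 for ANIT by tissue at 2 h and 4 for ANIT by time in bile duct, and the other counts stayed within 1.5 times.

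Leaving out 1 array at a time gave 121 to 137, 134 to 154, 127 to 154 and 107 to 125 members for tissue in vehicle rats at 2 and 6 h and ANIT rats at 2 and 6 h. It gave 1 to 11 and 9 to 19 for ANIT in bile duct at 2 and 6 h and 0 in hepatocytes, 1 to 11 and 8 to 27 for ANIT by tissue, 0 to 17 and 0 for ANIT by time in bile duct and hepatocytes, and 17 to 64 for tissue by time. Arrays whose omission moved a count by over 1.5 times were, for ANIT in bile duct, those named in the report. For ANIT by tissue at 2 h, the count was 1 without vehicle hepatocyte array 1 or vehicle bile duct array 3, 2 without ANIT hepatocyte array 2, and 3 without vehicle hepatocyte arrays 2, 3 or 5 or ANIT hepatocyte arrays 1, 3 or 4. It was 11 without ANIT bile duct array 2 and 9 without array 5. At 6 h it was 19 and 27 without vehicle bile duct arrays 3 and 4. For ANIT by time in bile duct, it was 0 to 3 without vehicle arrays 2, 3, 4 or 5 or ANIT arrays 2 or 4 at 2 h, or vehicle arrays 2 or 3 or ANIT arrays 1, 3, 4 or 5 at 6 h. It was 11 without ANIT array 1 at 2 h and 17 without vehicle array 4 at 6 h. For tissue by time, it was 17 to 21 without vehicle hepatocyte arrays 1, 3 or 5 or bile duct array 4 at 2 h or hepatocyte array 3 at 6 h, and 64 without bile duct array 4 at 6 h.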

Other observations

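Other transport genes of the captured tissues also split. The shares of all probe sets in vehicle rats at 2 h were 28.7% higher and 23.5% lower. Of 22 measured ATP-binding cassette transporters, 5 were higher in bile duct of vehicle rats at 2 h and 13 lower, with a median of -0.76 where all probe sets had 0.16. The export pumps of the canalicular membrane Abcb11 and Abcc2 differed by -6.57 and -6.23, and the basolateral pump Abcc3 by 4.77 (27.3-fold). Of 9 aquaporins, the water channels, 4 were higher and 2 lower, Aqp5 by 6.90 (119-fold), Aqp1 by 2.87, Aqp9 by -6.00 and Aqp8 by -3.44. Of 9 sodium-potassium ATPase subunits and regulators, 3 were higher and 2 lower, Fxyd3 by 7.77, Atp1b1 by 4.16 and Fxyd1 by -4.13. These lists were drawn up with earlier results of the data known.

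After ANIT in bile duct no gene of these lists was called at 2 h. At 6 h Abcc3 rose by 1.18 (adjusted p = 0.0206), Abce1 by 0.97 (adjusted p = 0.0474) and Atp1b3 by 1.56 (adjusted p = 0.0245), and Aqp5 changed by -2.23 (adjusted p = 0.0103).

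The p-values of the authors' deposited tables, adjusted over all 15866 probe sets, called 6 of 234 members in bile duct at 2 h, of which 1 was among limma's 4. At 6 h they called 11 members, of which 9 were among limma's 14. Of all 15866 probe sets they called 251 at 2 h and 618 at 6 h. In the authors' deposited table at 6 h, Slc3a2 rose 3.41-fold and Slc20a1 2.60-fold, and Slc1a3 had a log10 ratio of -0.274 with a p-value of 0.143.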
